A study of Mus musculus with 12 samples.

Results

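The cytosolic heat shock chaperones studied here were 10 genes, Hspa1a, Hspa1b, Hspa8, Hsph1, Dnaja1, Dnajb1, Hsp90aa1, Hsp90ab1, Hspb1 and Cryab, taken by symbol from the 27504 genes counted in mouse heart RNA. All 10 passed the filter on low counts, which left 16723 genes to test. They were followed through 12 libraries in 6 groups of 2. The AngII groups had vehicle (libraries 1 and 2), gastrodin at 5 mg/kg/day (3 and 4) or gastrodin at 50 mg/kg/day (5 and 6). The sham groups had vehicle (7 and 8), gastrodin at 5 mg/kg/day (9 and 10) or gastrodin at 50 mg/kg/day (11 and 12). The sample titles call this arm Sham and name no procedure. All hearts came from wild-type C57BL/6 mice at postnatal day 45. For the AngII arm the series' design text names angiotensin II, a hormone that raises blood pressure and drives growth of heart muscle, as the means of inducing hypertrophy. The sources used here do not give its dose, route or duration. Gastrodin, a glucoside from the orchid Gastrodia elata, was given by the gastric route for 7 days, and the labels call the vehicle a menstruum. The labels do not say whether libraries came from separate animals, so the p-values below measure only the spread between these samples, which may be technical.

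Chaperones hold unfolded or newly made proteins until they fold. HSP70 proteins bind short greasy stretches of a client and release them in a cycle driven by ATP, HSP40 proteins (J proteins) bring the clients and start ATP hydrolysis, and HSP110 proteins exchange the spent nucleotide. HSP90 finishes the folding of kinases and steroid receptors, while small heat shock proteins hold unfolded clients without using ATP. Under stress the transcription factor HSF1 forms trimers and binds heat shock elements, inverted repeats of GAA, in the promoters of the inducible members. In heart muscle the small heat shock protein alpha B crystallin (Cryab) is abundant and binds the filament protein desmin.

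Promoters are shown because HSF1 binds those of the inducible members, as described above. Whether HSF1 had a part in the values below was not tested. RefSeq promoters (GRCm38.p6) were found for 6 of the 10 genes, Hspa1a, Hspa1b, Dnaja1, Dnajb1, Hsph1 and Hspb1, and were not matched for Hspa8, Hsp90aa1, Hsp90ab1 and Cryab. For 5 of them the 150 bases before the RefSeq start site farthest upstream follow, 5′ to 3′ on the gene's strand. The windows lie at chr17:34972157-34972306 (minus strand, Hspa1a), chr17:34959239-34959388 (minus, Hspa1b), chr4:40722318-40722467 (plus, Dnaja1), chr5:135887769-135887918 (plus, Hspb1) and chr8:83608025-83608174 (plus, Dnajb1). Capitals mark the paired repeats GAANNTTC or TTCNNGAA, each of which reads the same on both strands.
Hspa1a: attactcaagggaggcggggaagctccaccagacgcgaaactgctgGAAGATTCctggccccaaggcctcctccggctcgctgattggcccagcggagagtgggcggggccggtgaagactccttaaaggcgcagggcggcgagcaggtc
Hspa1b: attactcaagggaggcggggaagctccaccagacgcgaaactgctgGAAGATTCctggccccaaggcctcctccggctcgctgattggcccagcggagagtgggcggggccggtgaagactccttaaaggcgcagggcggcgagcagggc
Dnaja1: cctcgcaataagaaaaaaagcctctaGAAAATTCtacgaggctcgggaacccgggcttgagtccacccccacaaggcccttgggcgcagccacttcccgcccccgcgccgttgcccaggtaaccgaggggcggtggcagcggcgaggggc
Hspb1: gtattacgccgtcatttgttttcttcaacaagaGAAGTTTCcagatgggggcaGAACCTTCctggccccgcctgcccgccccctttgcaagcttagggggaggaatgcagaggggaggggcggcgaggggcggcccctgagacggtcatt
Dnajb1: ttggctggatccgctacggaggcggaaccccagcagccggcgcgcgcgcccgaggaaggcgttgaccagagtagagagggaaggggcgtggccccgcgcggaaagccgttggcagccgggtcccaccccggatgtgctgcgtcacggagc
The Hspa1a and Hspa1b windows differed at 1 base of the 150 and carried GAAGATTC, whose first base lies 104 bases before the start. Dnaja1 carried GAAAATTC (124 bases before the start), Hspb1 carried GAAGTTTC (117) and GAACCTTC (97), and Hsph1 carried TTCTCGAA (33). In the 250 bases before the start, 5 of the 6 genes held either paired form and Dnajb1 held neither, where 12.8% of 32851 promoter windows of 27025 genes held at least 1 (GAANNTTC 6.69%, TTCNNGAA 7.17%). The longer form with 3 repeats, GAANNTTCNNGAA, searched on both strands, was found in 0 of the 6 and in 0.466% of all windows. Hspa1a and Hspa1b differed at 3 of these 250 bases and carry the same site, so they are near copies rather than separate cases. The genes were chosen as heat shock genes, so the comparison with all windows is descriptive. A run of letters is not a bound site, and the search covered this window alone. The Dnaja1 window also overlaps the antisense gene Gm6297 and a noncoding Dnaja1 transcript in GENCODE M21, and the Hsph1 match lies inside the Hsph1 gene as GENCODE M21 draws it, whose end at 149636376 is upstream of the RefSeq start at 149636336.

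Libraries held 63488815 to 78604709 counts, of which 63.1 to 74.5% were mitochondrial. Genes outside the mitochondrial, mitochondrial-like and ribosomal RNA classes held 6.34% (library 9) to 20.3% (library 3). Ribosomal RNA took 10.8% of library 12, 0.959% of library 10 and at most 0.194% of the others. On the first principal component library 4 lay at 12.2, apart from the other AngII libraries (-91.3 to -40.3) and the sham libraries (37.3 to 78.6). Nppa, which encodes atrial natriuretic peptide and is a usual marker of a loaded heart, measured 96.6 to 221 CPM in AngII libraries and 315 to 699 CPM in sham libraries (log2 fold change -1.56 ± 0.24 SE, edgeR adjusted p = 0.00197), which is opposite to the usual direction in hypertrophy, and the arms are named here as labelled. Cardiomyocyte markers were high in all libraries (3609 to 8670 CPM summed over 8 genes). CPM are counts brought to a common library size and scaled by TMM, a correction for the makeup of each library, while TPM also divide by transcript length.

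Per length, the 10 genes fell into an abundant and a scarce set. Averaged over the 12 libraries, Cryab stood at 58.5 TPM, Hspb1 at 55.6, Hspa8 at 52.1 and Hsp90ab1 at 51.7, by the authors' TPM. Dnaja1 stood at 5.20, Hsp90aa1 at 4.28, Hsph1 at 1.74 and Dnajb1 at 1.63 TPM. The inducible HSP70 genes were lowest, Hspa1a at 0.552 and Hspa1b at 0.493 TPM. They also varied most between libraries: the SD of log2 CPM over the 12 libraries was 1.23 for Hspa1b (19.4-fold from lowest to highest) and 1.07 for Hspa1a (12.02-fold), where the median gene had 0.494. The other members ranged from 0.514 (Hsph1) to 0.280 (Hsp90ab1).

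**Figure D1:**
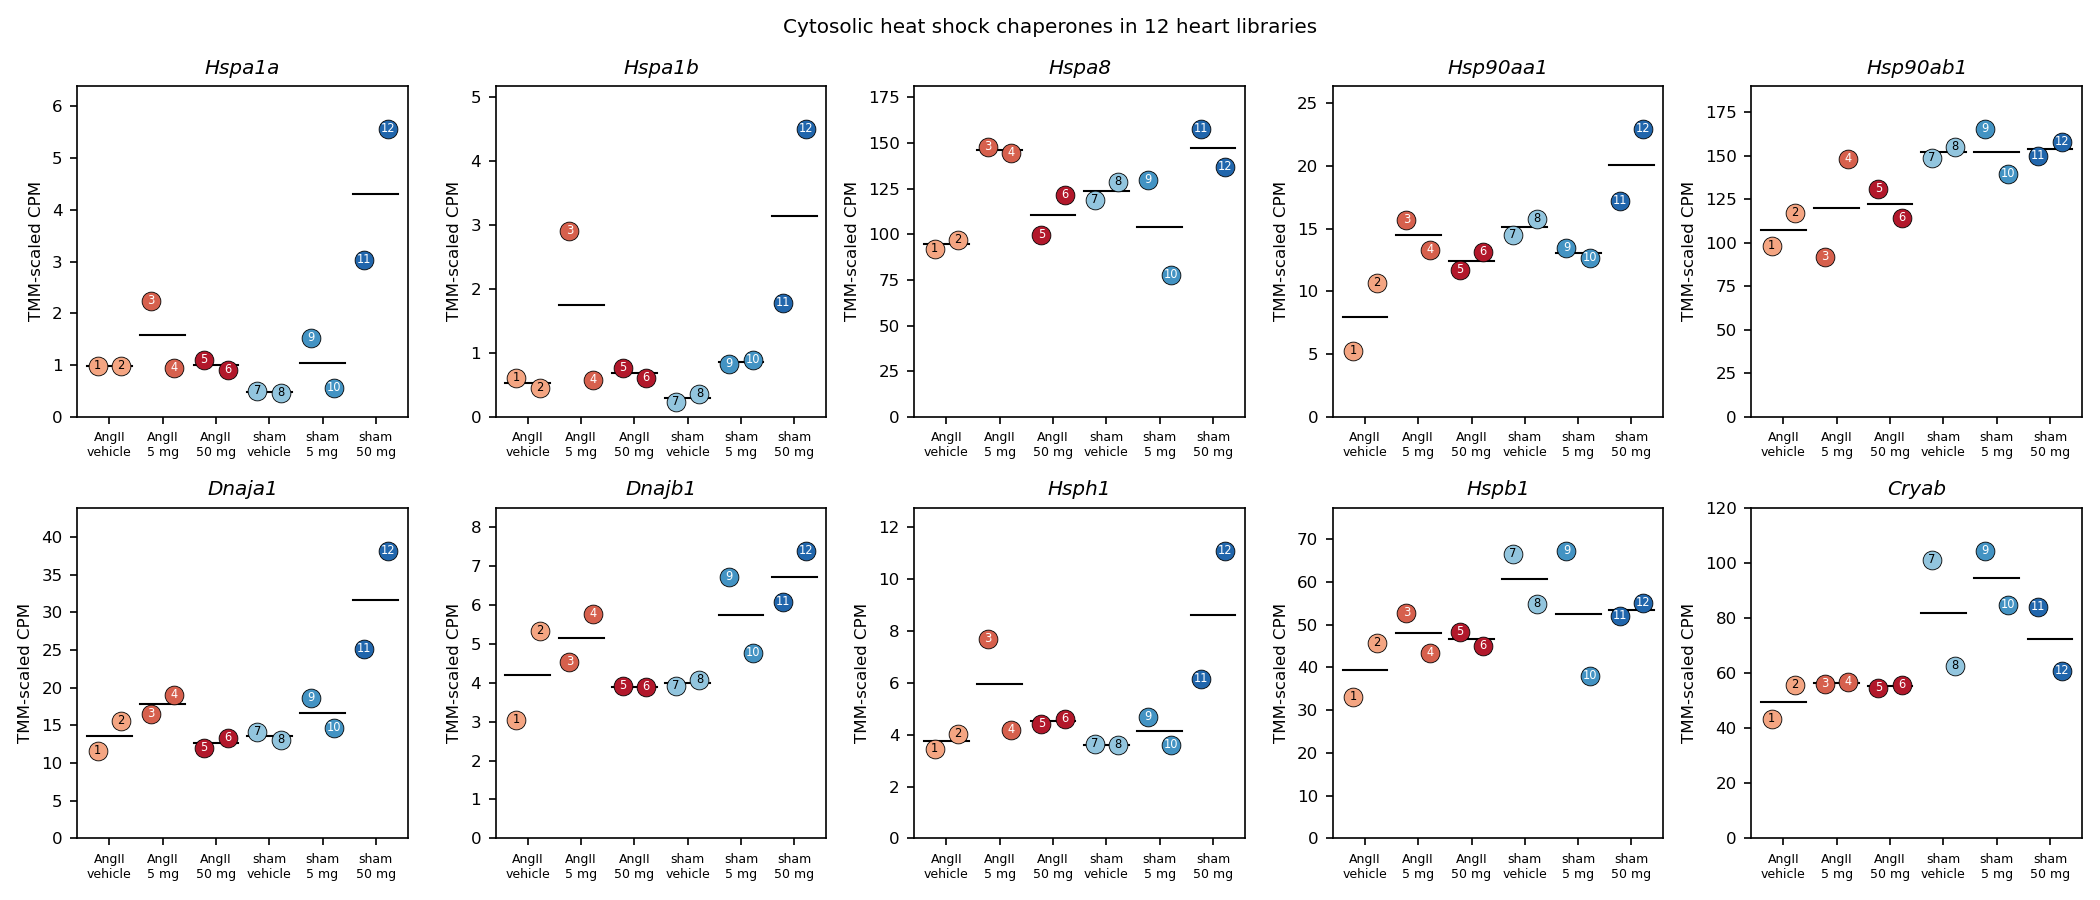
TMM-scaled CPM (y axis, from 0) of the 10 genes in each group (x axis), each point a library with its number and each short line the mean of the group's pair. Hspa1a, Hspa1b, Hsph1 and Dnaja1 are highest in library 12 (5.56, 4.50, 11.1 and 38.2 CPM), and Cryab lies at 43.3 to 56.6 CPM in the 6 AngII libraries, below all 6 sham libraries.

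Hspa1a and Hspa1b, the stress-inducible HSP70 genes, lie side by side on chromosome 17 of GRCm38, at chr17:34969190-34972156 and chr17:34956436-34959238 on the minus strand. Their transcripts share 63.8% (Hspa1a) and 67.6% (Hspa1b) of their 31-base words with each other, so reads may be split between them in an unknown way. Hspa1a stood at 0.985 and 0.974 CPM in AngII vehicle, 2.24 and 0.936 CPM in AngII 5 mg, and 1.10 and 0.898 CPM in AngII 50 mg. It stood at 0.501 and 0.462 CPM in sham vehicle, 1.53 and 0.563 CPM in sham 5 mg, and 3.03 and 5.56 CPM in sham 50 mg. Both sham vehicle libraries were lower, and both sham 50 mg libraries higher, than every other library of the 12. Library 12 held 398 counts of Hspa1a and library 7 held 26, so that counting error alone is larger at the low end.

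Hspa1b stood at 0.615 and 0.443 CPM in AngII vehicle, 2.91 and 0.576 CPM in AngII 5 mg, and 0.759 and 0.612 CPM in AngII 50 mg. It stood at 0.231 and 0.350 CPM in sham vehicle, 0.820 and 0.890 CPM in sham 5 mg, and 1.78 and 4.50 CPM in sham 50 mg. Library 3 was high among the AngII libraries and library 12 among the sham libraries, while sham vehicle held the 2 lowest values. Within the libraries, Hspa1a and Hspa1b together came to 1.43, 1.20, 2.90, 0.864, 1.54 and 1.02% of the TPM of the constitutive Hspa8 in AngII libraries 1 to 6. In sham libraries 7 to 12 they came to 0.507, 0.523, 1.49, 1.56, 2.52 and 6.08%. This share, which does not depend on the scaling between libraries, ran in dose order without overlap in the sham arm and overlapped between doses in the AngII arm.

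Gastrodin at 50 mg against vehicle in sham hearts gave the widest differences in the group. The log2 fold change was 3.16 ± 0.60 (SE) for Hspa1a and 3.42 ± 0.75 for Hspa1b, both short of the threshold of 0.05 over all genes (edgeR adjusted p = 0.0715 and 0.134). Their 95% intervals ran from 1.86 to 4.45 and from 1.80 to 5.03. In this comparison edgeR called 0 of the 10 genes and 0.149% of all genes. Of the 10, 5 had an unadjusted p under 0.05, DESeq2 called 3 and limma-voom 0. The matching numbers over all 16723 genes were 1542, 281 and 20. The Hspa1a value passed with Hspa1a and Hspa1b summed (3.26, edgeR adjusted p = 0.0479) and with only the sham 50 mg and vehicle groups fitted (edgeR adjusted p = 0.0313), and it was 2.65 (edgeR adjusted p = 0.353) without library 12. Hspa1a also passed without library 3, 4, 9 or 10 (edgeR adjusted p = 0.0268, 0.0169, 0.0445 and 0.0402) and Hspa1b without library 3 or 4 (0.0313 and 0.0162), while Hspa1b was 2.60 without library 12. On the log2(TPM + 1) scale, which understates changes of low genes, the values were 0.97 for Hspa1a and 0.83 for Hspa1b. Mean TPM in sham 50 mg and sham vehicle was 1.29 and 0.132 for Hspa1a, and 1.02 and 0.0883 for Hspa1b.

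AngII against sham hearts at 50 mg uses the same sham 50 mg libraries. Hspa1a was lower in AngII, with a log2 fold change of -2.11 ± 0.56 (edgeR adjusted p = 0.0486), and Hspa1b stood at -2.20 ± 0.70 and did not (edgeR adjusted p = 0.0814). In this comparison edgeR called 2 of the 10 genes (Hspa1a and Dnaja1, both lower), against 5.42% of all genes. Of the 10, 5 had an unadjusted p under 0.05, DESeq2 called 3 and limma-voom 2. The matching numbers over all 16723 genes were 4009, 2276 and 1127. The Hspa1a call held in 4 of 12 fits with a library left out and ended without library 1, 2, 5, 6, 7, 8, 11 or 12 (edgeR adjusted p = 0.0548 to 0.300; log2 fold change -1.60 without library 12). The Hspa1a call also ended with the share of counts outside the mitochondrial, mitochondrial-like and ribosomal RNA classes as a covariate (edgeR adjusted p = 0.0612), with DESeq2 size factors (edgeR adjusted p = 0.0507), without mitochondrial and haemoglobin genes (edgeR adjusted p = 0.0508), and on TPM, where the value was -0.64 (limma adjusted p = 0.378) on the log2(TPM + 1) scale, which understates changes of low genes. Hspa1b passed without library 3 or 4 (edgeR adjusted p = 0.0266 and 0.0176) and was -1.37 without library 12.

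Markers of other cells differed beside the 50 mg result. The 7 fibroblast genes summed to 85.5 and 87.1 CPM in AngII 50 mg and to 309 and 281 CPM in sham 50 mg, where 5 of the 7 were called lower in AngII (0 of the 7 at 0 counts in any library). The 7 macrophage genes summed to 45.6 and 34.7 CPM in AngII 50 mg and 135 and 109 CPM in sham 50 mg, with 0 of the 7 called by edgeR, 6 at an unadjusted p under 0.05, 6 called by DESeq2 and 3 by limma-voom (median log2 fold change -1.50). The 5 red cell genes were all called higher in AngII (1591 and 3347 CPM, against 289.6 and 608 CPM in sham 50 mg), as were 3 of 8 cardiomyocyte genes (7666 and 8670 CPM summed, against 4230.0 and 3609 CPM) and 2 of 3 tested lung genes. In sham vehicle libraries, the other side of the comparison of doses, the fibroblast genes summed to 97.4 and 167 CPM, the macrophage genes to 33.1 and 66.2 CPM and the red cell genes to 1741 and 1310 CPM, and of the 30 tested genes of these 5 lists edgeR called 0 in sham 50 mg against vehicle, with 16 at an unadjusted p under 0.05, 6 called by DESeq2 and 1 by limma-voom. The 6 liver genes summed to 0.926 and 0.100 CPM in sham vehicle, where 1 of the 6 had any count in each library. They summed to 24.6 and 31.7 CPM in sham 50 mg. For sham 50 mg against vehicle edgeR called 0 of these 6, with 6 at an unadjusted p under 0.05, 3 called by DESeq2 and 0 by limma-voom. In bulk RNA, fewer cells of a type and less RNA per cell cannot be told apart. The part of these cells or of the ribosomal RNA in library 12 in these results was not tested.

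The interaction at 50 mg, the dose effect in AngII hearts minus that in sham hearts, was -3.13 ± 0.80 (log2) for Hspa1a and -3.05 ± 0.99 for Hspa1b (edgeR adjusted p = 0.364 and 0.606). Among all genes 0.0299% passed there, and 0 of the 10 by edgeR, DESeq2 or limma-voom, with 3 at an unadjusted p under 0.05. Unadjusted p was under 0.05 for 1159 of all 16723 genes, while DESeq2 called 114 and limma-voom 6. Without a filter on low counts the Hspa1a value passed (-3.12, edgeR adjusted p = 0.0131). In AngII hearts the 50 mg dose gave 0.03 ± 0.55 for Hspa1a (95% interval -1.16 to 1.22; edgeR adjusted p = 1). Without gastrodin, Hspa1a lay at 1.02 ± 0.57 in AngII against sham (edgeR adjusted p = 0.378).

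The 5 mg dose gave no call among the 10 genes in either arm. Hspa1b lay at 1.73 ± 0.69 (log2) against vehicle in AngII hearts and at 1.54 ± 0.72 in sham hearts (edgeR adjusted p = 1 for each). The AngII value came from library 3 and was 0.097 without it. In AngII, 0.00598% of all genes were called and 2 members had an unadjusted p under 0.05 (DESeq2 and limma-voom called 0). In sham, 0.0179% of all genes were called, 0 members had an unadjusted p under 0.05, and DESeq2 and limma-voom called 0. Unadjusted p was under 0.05 for 291 of all 16723 genes in AngII and for 689 in sham. Of all genes DESeq2 called 12 in AngII and 32 in sham, and limma-voom 1 and 0. The 8 immediate-early genes, such as Fos and Egr1, respond within minutes to stress and handling. They summed to 224 CPM in library 3, and to 145 CPM in library 1, which held the lowest value of 6 members. In the others they summed to 46.0 to 91.4 CPM. The sums were 51.4 and 46.0 CPM in sham vehicle libraries 7 and 8, and 80.4 and 58.2 CPM in sham 50 mg libraries 11 and 12. For sham 50 mg against vehicle edgeR called 0 of the 8, with 1 at an unadjusted p under 0.05. The part of these genes in the values of library 3 or in the sham comparison was not tested.

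**Figure D2:**
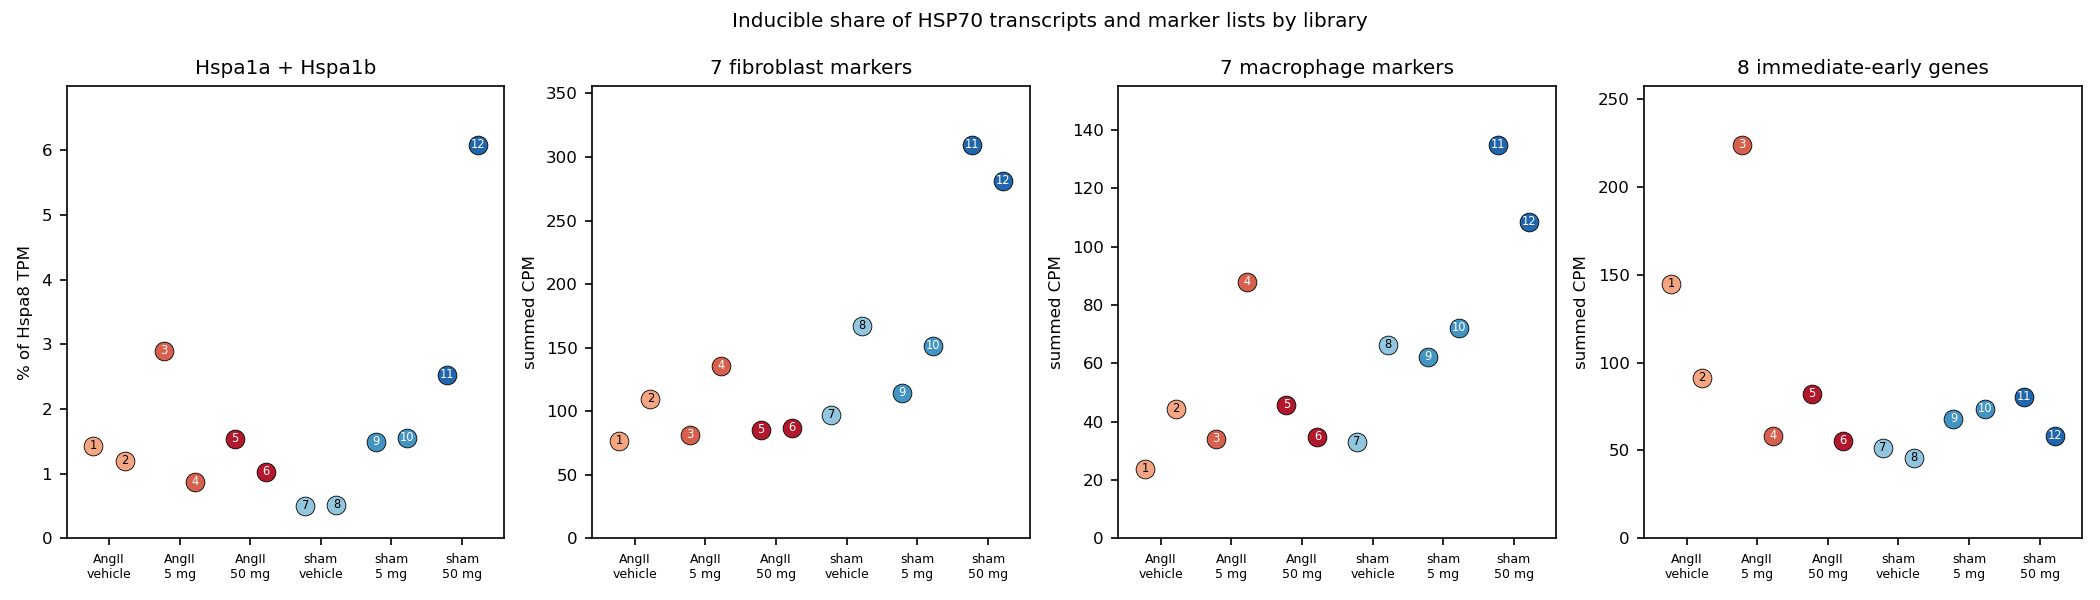
The TPM of Hspa1a plus Hspa1b as a percentage of Hspa8 TPM, and the summed TMM-scaled CPM of 7 fibroblast, 7 macrophage and 8 immediate-early genes (y axes, from 0), by group, each point a numbered library. The HSP70 share is highest in library 12 (6.08%) and then library 3 (2.90%). Fibroblast and macrophage sums are highest in libraries 11 and 12, and the immediate-early sum is highest in library 3.

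Hspa8, the constitutive HSP70 that also strips clathrin coats (chr9:40800984-40810087, plus strand), ranged from 77.9 to 158 CPM. It stood at 92.1 and 97.0 CPM in AngII vehicle, 148 and 144 CPM in AngII 5 mg, and 99.9 and 122 CPM in AngII 50 mg. It stood at 119 and 129 CPM in sham vehicle, 129.6 and 77.9 CPM in sham 5 mg, and 158 and 137 CPM in sham 50 mg. The arms overlapped, and the change averaged over the 3 doses was -0.10 ± 0.17 (log2). The count is uncertain because 4 genes that share its words hold 87825 counts beside 114391 for Hspa8: the lincRNA Gm26825 (53403 counts, 38.2% of the Hspa8 words) and the processed pseudogenes Gm15459 (26343 counts, 38.6%), Gm8355 and Gm6210.

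Hsph1 encodes HSP110, the exchange factor of HSP70 (chr5:149614287-149636376, minus strand), and shared none of its words with another gene. It stood at 3.45 and 4.04 CPM in AngII vehicle, 7.69 and 4.19 CPM in AngII 5 mg, and 4.41 and 4.62 CPM in AngII 50 mg. It stood at 3.63 and 3.59 CPM in sham vehicle, 4.70 and 3.60 CPM in sham 5 mg, and 6.16 and 11.1 CPM in sham 50 mg. Libraries 3, 11 and 12 were the highest, as they were for Hspa1a and Hspa1b, whose log2 CPM had Pearson's r with Hsph1 of 0.921 and 0.911 over the 12 libraries (Spearman's rho 0.783 and 0.692). Without the 2 libraries farthest from the median of the HSP70 gene, r was 0.828 and 0.722, and these values are descriptive. Gastrodin at 50 mg against vehicle in sham hearts gave 1.26 ± 0.37 (log2) for Hsph1 (edgeR adjusted p = 0.314) and 0.77 without library 12, while AngII against sham at 50 mg gave -0.94 ± 0.37 (edgeR adjusted p = 0.145) and -0.44 without library 12.

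Dnaja1 and Dnajb1 are HSP40 genes, the first encoding a farnesylated J protein and the second the main stress-induced J protein. Dnaja1 (chr4:40722150-40737149, plus strand) stood at 11.6 and 15.5 CPM in AngII vehicle, 16.6 and 19.0 CPM in AngII 5 mg, and 11.95 and 13.3 CPM in AngII 50 mg. It stood at 14.1 and 13.0 CPM in sham vehicle, 18.6 and 14.7 CPM in sham 5 mg, and 25.1 and 38.2 CPM in sham 50 mg. Both sham 50 mg libraries lay above all others. At 50 mg Dnaja1 was lower in AngII hearts than in sham hearts, with a log2 fold change of -1.32 ± 0.30 (edgeR adjusted p = 0.0275). This call held in 8 of 12 fits with a library left out and ended without library 5, 6, 11 or 12 (edgeR adjusted p = 0.0502 to 0.225; log2 fold change -0.98 without library 12). On TPM the value was -0.62 (limma adjusted p = 0.587). Against vehicle, 50 mg gave 1.22 ± 0.30 in sham hearts (edgeR adjusted p = 0.221) and -0.10 ± 0.30 in AngII hearts (edgeR adjusted p = 1), and the interaction was -1.32 ± 0.42 (edgeR adjusted p = 0.576). The marker sums of the 50 mg groups given above for Hspa1a stand beside this result too.

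Dnajb1 (chr8:83608193-83612653, plus strand) stood at 3.05 and 5.34 CPM in AngII vehicle, 4.54 and 5.78 CPM in AngII 5 mg, and 3.92 and 3.88 CPM in AngII 50 mg. It stood at 3.92 and 4.07 CPM in sham vehicle, 6.73 and 4.78 CPM in sham 5 mg, and 6.07 and 7.40 CPM in sham 50 mg. At 50 mg the AngII pair lay below the sham pair (-0.79 ± 0.34, edgeR adjusted p = 0.177), and sham 50 mg against vehicle gave 0.75 ± 0.34 (edgeR adjusted p = 0.524). In AngII hearts the 50 mg dose gave -0.10 ± 0.33. There 0 members passed or had an unadjusted p under 0.05 (DESeq2 and limma-voom also 0). Of all genes 0.012% were called, and 315 of 16723 had an unadjusted p under 0.05.

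Hsp90aa1 and Hsp90ab1 encode the stress-inducible and the constitutive cytosolic HSP90. Hsp90aa1 (chr12:110690605-110702728, minus strand) stood at 5.26 and 10.6 CPM in AngII vehicle, 15.7 and 13.3 CPM in AngII 5 mg, and 11.7 and 13.1 CPM in AngII 50 mg. It stood at 14.5 and 15.7 CPM in sham vehicle, 13.5 and 12.7 CPM in sham 5 mg, and 17.2 and 22.9 CPM in sham 50 mg. AngII vehicle held the 2 lowest values of the 12, library 1 below all others. Without gastrodin AngII hearts lay at -0.93 ± 0.33 (log2) against sham hearts (edgeR adjusted p = 0.221), and averaged over doses at -0.49 ± 0.19 (edgeR adjusted p = 0.0829; -0.67 and 0.0254 without library 2). In AngII, 5 mg against vehicle gave 0.87 ± 0.33 and 50 mg gave 0.65 ± 0.33 (edgeR adjusted p = 1 for each), and without library 1 the values were 0.45 and 0.23.

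Hsp90ab1 (chr17:45567775-45573271, minus strand) stood at 98.1 and 117 CPM in AngII vehicle, 91.5 and 148 CPM in AngII 5 mg, and 131 and 114 CPM in AngII 50 mg. It stood at 149 and 155 CPM in sham vehicle, 165 and 139 CPM in sham 5 mg, and 149.5 and 158 CPM in sham 50 mg. Library 4 was the 1 AngII library inside the sham range, and it is the library that lay apart on the first principal component. The averaged change was -0.39 ± 0.17 (edgeR adjusted p = 0.123), and -0.52 without library 4 (edgeR adjusted p = 0.0233). It had the smallest spread of the 10 genes. Within libraries Hsp90aa1 came to 4.12 to 13.2% of Hsp90ab1 TPM in AngII hearts, lowest in library 1 and highest in library 3, and to 6.27 to 11.1% in sham hearts.

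Cryab, the small heat shock protein gene of the desmin filament, was the 1 member called in AngII against sham averaged over the 3 doses. It lies at chr9:50751325-50756636 on the plus strand and overlaps Hspb2 on the other strand, so that without strand information reads of the pair may be mixed. Cryab stood at 43.3 and 55.6 CPM in AngII vehicle, 56.2 and 56.6 CPM in AngII 5 mg, and 54.5 and 55.7 CPM in AngII 50 mg. It stood at 101 and 62.6 CPM in sham vehicle, 104 and 84.5 CPM in sham 5 mg, and 84.0 and 60.6 CPM in sham 50 mg. Every AngII library lay below every sham library, though by a narrow gap between library 4 at 56.6 and library 12 at 60.6 CPM. The means were 53.6 ± 5.11 CPM in AngII hearts and 82.8 ± 18.4 CPM in sham hearts (SD, n = 6 each), with a log2 fold change of -0.62 ± 0.18 (edgeR adjusted p = 0.0294). The call held in 6 of 12 fits with a library left out and ended without library 1, 5, 6, 7, 9 or 11 (log2 fold change -0.61 to -0.49, edgeR adjusted p = 0.0626 to 0.104). It also ended with the covariate used for Hspa1a (-0.52, edgeR adjusted p = 0.170), and the value was 0.0052 on TPM. The opposite-strand Hspb2 lay at 0.12 ± 0.18.

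Markers of several cell types moved with the arms beside this result. The 8 cardiomyocyte genes summed to 5150 to 8670 CPM in AngII libraries and 3609 to 6579 CPM in sham libraries (3 called higher and 1 lower in AngII), the 5 red cell genes to 1028 to 3347 against 289.6 to 1741 CPM (5 higher), and the 8 endothelial genes to 97.7 to 211 against 74.8 to 94.9 CPM (5 higher). The 8 smooth muscle and pericyte genes summed to 110.2 to 329 CPM in AngII libraries and 79.7 to 167 CPM in sham libraries (5 higher), the 7 fibroblast genes to 76.2 to 136 against 97.4 to 309 CPM (5 lower), and the 7 macrophage genes to 23.6 to 88.1 against 33.1 to 135 CPM (3 lower), with none of these lists' genes at 0 in any library. The 6 lung genes summed to 2.01 to 12.6 CPM in AngII libraries and 0.0559 to 2.51 CPM in sham libraries (3 of 3 tested higher), with the surfactant gene Sftpc at 0 outside library 6, and the 6 liver genes to 0.302 to 60.7 against 0.100 to 44.4 CPM (0 called by edgeR, 5 at an unadjusted p under 0.05, 1 by DESeq2 and 0 by limma-voom). The part of these cells in the result was not tested.

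At single doses Cryab gave -0.72 ± 0.31 with vehicle, -0.74 ± 0.31 at 5 mg and -0.39 ± 0.31 at 50 mg in AngII against sham (edgeR adjusted p = 0.277, 0.376 and 0.465), and on TPM it turned positive at 5 mg (0.035) and 50 mg (0.18). With vehicle, edgeR called 0 of the 10 genes and 0.0598% of all genes. There 2 of the 10 and 2752 of all 16723 genes had an unadjusted p under 0.05. DESeq2 called 0 of the 10 and 718 of all genes, and limma-voom 0 and 5. At 5 mg edgeR called 0 of the 10 and 0% of all genes. There 1 of the 10 and 2004 of all 16723 genes had an unadjusted p under 0.05. DESeq2 then called 0 of the 10 and 277 of all genes, and limma-voom 0 and 0. Gastrodin at 50 mg gave -0.18 ± 0.31 for Cryab against vehicle in sham hearts. The interaction at 5 mg gave 0 calls among the 10 by edgeR, DESeq2 or limma-voom, with 0.00598% of all genes called by edgeR. Of the 10, 1 had an unadjusted p under 0.05 (Hsp90aa1 at 1.08 ± 0.47), as did 514 of all 16723 genes.

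Hspb1, which encodes the small heat shock protein known as HSP25 in mice (chr5:135887919-135889563, plus strand), stood at 33.2 and 45.8 CPM in AngII vehicle, 52.7 and 43.3 CPM in AngII 5 mg, and 48.3 and 45.0 CPM in AngII 50 mg. It stood at 66.5 and 54.7 CPM in sham vehicle, 67.3 and 37.9 CPM in sham 5 mg, and 52.0 and 55.0 CPM in sham 50 mg. The arms overlapped, as sham library 10 lay among the AngII values and AngII library 3 (52.7 CPM) just above sham library 11 (52.0 CPM). The averaged change was -0.32 ± 0.18 (edgeR adjusted p = 0.229). Its pseudogene Hsp25-ps1 shares 52.3% of its words, and it and 1 other copy held 2450 counts beside 46031 for Hspb1. Per length, Cryab over Hspb1 ran from 0.861 to 1.06 in AngII libraries and from 0.890 to 1.80 in sham libraries.

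As a group, all 10 genes had negative log2 fold changes in AngII against sham averaged over doses by TMM-scaled counts (median -0.30, all genes 0.097), but all 10 were positive on the deposited TPM (0.0052 to 0.51), which carry no TMM scaling, and 3 turned positive without libraries 4 and 12. On TPM the median of all genes was 0.22, or 0.12 above that by counts. Relative to it 7 of the 10 lay lower and 3 higher, with the members' median at -0.044 (-0.40 on the TMM scale). These medians are not like for like. The TPM fit used 14263 genes, not 16723, on the log2(TPM + 1) scale, which understates changes of low genes. Of the 10, 1 was called, 4 had an unadjusted p under 0.05, DESeq2 called 3 and limma-voom 1. Over all 16723 genes, 6137 had an unadjusted p under 0.05, DESeq2 called 4617 and limma-voom 4491. Among all genes 20.9% were called, and 7.53% were called lower, so 1 of 10 called lower is near that share. The number of genes called lower was 1260, and it ran from 393 (without library 1) to 2256 (without library 4) with a library left out and was 80 with the covariate, which called 0 members. All 6 AngII libraries lay below all 6 sham libraries for 1 of the 10 genes (Cryab) and for 2.92% of all genes, and above them for 0 of the 10 and 4.44%. The share of counts outside the mitochondrial, mitochondrial-like and ribosomal RNA classes ran from 7.49 to 20.3% in AngII libraries and from 6.34 to 10.4% in sham libraries, and its part in the TPM values was not tested.

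At 50 mg all 10 were again negative in AngII against sham by TMM-scaled counts (median -0.74, all genes 0.032), whereas Cryab, Hspb1, Hspa8 and Hsp90ab1 were positive on TPM (0.15 to 0.35). Relative to the TPM median of all genes, 8 of the 10 lay lower and 2 higher. In sham hearts at 50 mg against vehicle, 8 of the 10 were positive on both scales (median 0.58 by TMM-scaled counts, all genes 0). These comparisons share the sham 50 mg libraries, of which library 12 held the highest value of 6 members and library 11 of 1, and library 9 (sham 5 mg) held that of the other 3. All 10 members lay above their own mean in library 11 and 9 of 10 in library 12, against 0 of 10 in library 1, which held the lowest value of 6.

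**Figure D3:**
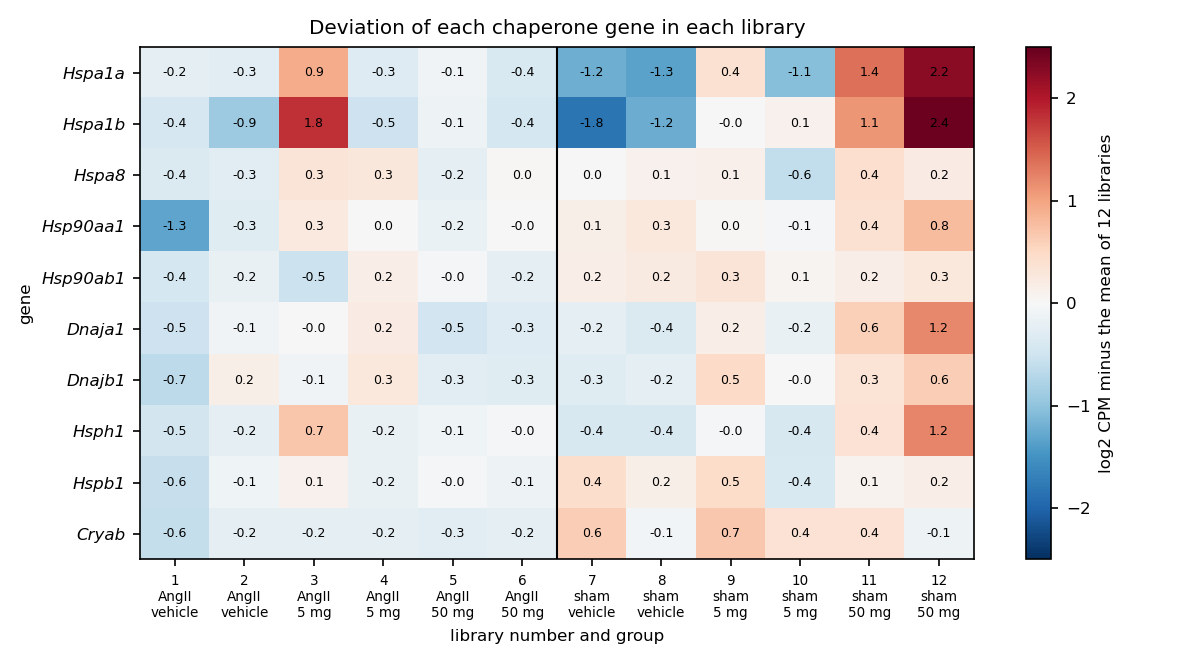
Log2 TMM-scaled CPM minus the mean of the 12 libraries for each gene (rows) and library (columns, AngII left of the line and sham right), red above and blue below the mean. The mean over the 10 genes is highest in library 12 (0.90) and library 11 (0.52) and lowest in library 1 (-0.56).

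**Figure D4:**
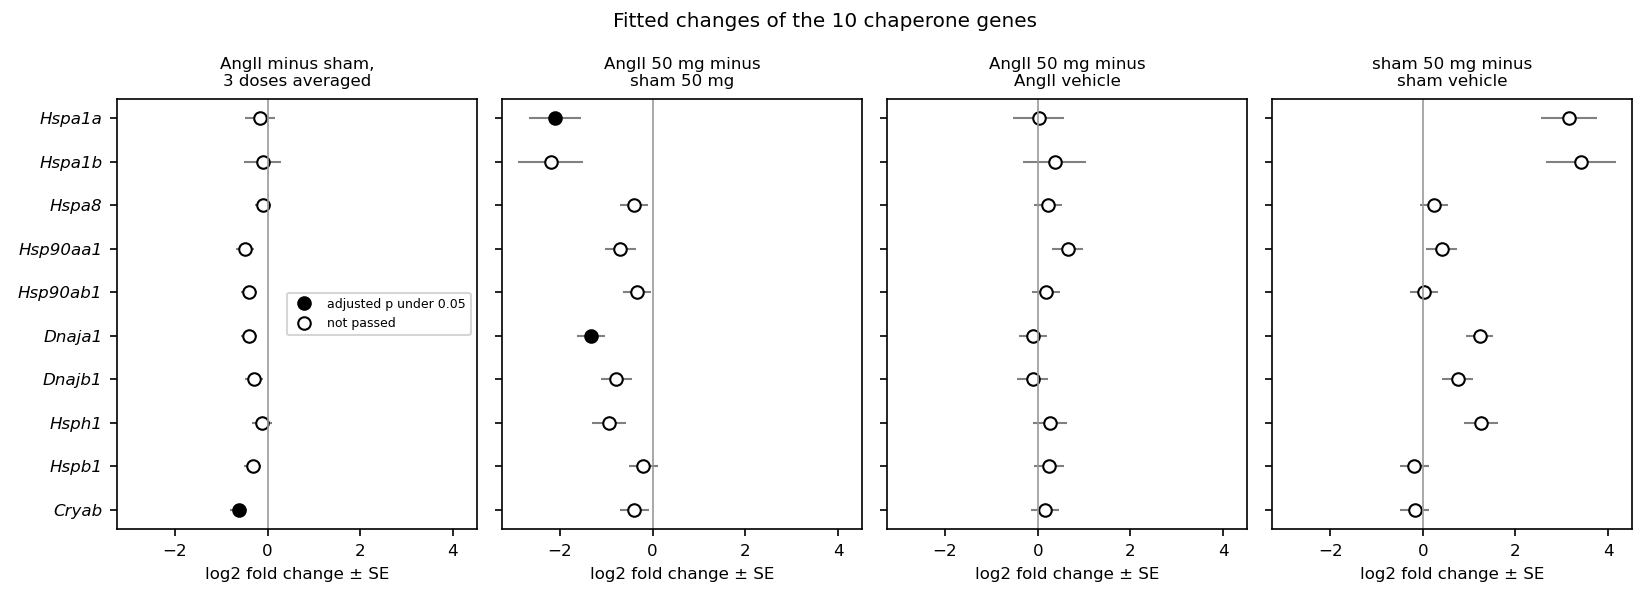
Log2 fold changes with their standard errors (x axis) of the 10 genes (y axis) in 4 comparisons by TMM-scaled counts, filled where the edgeR adjusted p was under 0.05. Cryab passed in AngII against sham averaged over doses, and Hspa1a and Dnaja1 at 50 mg. On TPM the averaged values of all 10 were positive, as were those of Cryab, Hspb1, Hspa8 and Hsp90ab1 at 50 mg.

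The wider chaperone network did not move one way in AngII against sham averaged over doses. By edgeR 15 of 68 tested genes in 9 lists were called, near the 20.9% of all genes. DESeq2 and limma-voom called 24 each of the 68, and 4617 and 4491 of all 16723 genes. Of 5 tested heat shock factors and regulators 1 was lower, Hsbp1, whose product binds HSF1 and dampens it (13.4 ± 3.07 CPM in AngII and 22.1 ± 1.97 CPM in sham hearts; log2 fold change -0.73 ± 0.18, edgeR adjusted p = 0.0152), and Hsf1, named after its value was seen, lay at 0.47 ± 0.21 without passing. Of 8 other HSP70 and HSP110 genes 1 rose, the endothelial Hspa12b (0.73 ± 0.20). Of 7 other cytosolic HSP40 genes 2 rose, Dnajc7 (0.82 ± 0.16) and the heart-expressed Dnajb5 (0.88 ± 0.22), and 2 fell, Dnajb2 (-0.72 ± 0.19) and Dnajb6 (-0.48 ± 0.16).

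Of 6 BAG genes, most of whose proteins release nucleotide from HSP70, Bag1 (-0.83 ± 0.22) and Bag5 (-0.64 ± 0.17) fell and 0 rose. Of 13 co-chaperones of HSP90 and HSP70, the myosin chaperone gene Unc45b (0.88 ± 0.19) and the ubiquitin ligase gene Stub1 (0.66 ± 0.19) rose, and St13 (-0.67 ± 0.18) and the kinase adaptor gene Cdc37 (-0.54 ± 0.18) fell. Of 5 other small heat shock genes, Hspb6 (HSP20) fell to 38.6 ± 7.01 CPM in AngII hearts, against 90.5 ± 25.8 CPM in sham hearts (log2 fold change -1.22 ± 0.21, edgeR adjusted p = 0.00332), and 4 did not pass. Of 8 subunits of TRiC, the ring that folds actin and tubulin, Cct6a (-0.56 ± 0.17) and Cct2 (-0.52 ± 0.17) fell. Of 7 mitochondrial chaperones 0 passed in edgeR (smallest p for Dnaja3, -0.44 ± 0.18, and Grpel1, -0.65 ± 0.27), and 3 had an unadjusted p under 0.05 (DESeq2 called 0 and limma-voom 1). Of 9 chaperones of the endoplasmic reticulum 0 passed by edgeR, DESeq2 or limma-voom and 0 had an unadjusted p under 0.05 (Hsp90b1, 0.29 ± 0.15, and Dnajb11, 0.37 ± 0.21).

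Among these called genes the calls of Dnajc7, Unc45b and Hspb6 held in all 12 fits with a library left out, whereas those of Dnajb6, Cdc37, Cct2 and Cct6a held in 1 of 12 and turned positive on TPM (0.021 to 0.091). With the covariate used for Cryab, Dnajc7 (0.74, edgeR adjusted p = 0.0438) and Hspb6 (-1.02, edgeR adjusted p = 0.0360) still passed and the other 13 did not, among them Unc45b (0.60, edgeR adjusted p = 0.102), Dnajb5 (0.48), Hspa12b (0.33), Stub1 (0.37), Bag1 (-0.45), Cdc37 (-0.32) and Cct2 (-0.33). On TPM Dnajc7 (1.24) and Unc45b (1.26) passed and the other 13 did not. At 50 mg, AngII against sham called 2 of the 68 tested genes of these lists by edgeR, against 5.42% of all genes. Of the 68, 15 had an unadjusted p under 0.05, DESeq2 called 9 and limma-voom 3. The 2 were the heat shock factor gene Hsf4 (3.21 ± 0.81, edgeR adjusted p = 0.0384) and Unc45b (1.72 ± 0.34, edgeR adjusted p = 0.0175). Both were higher in AngII and are named after their values were seen. In the other 8 comparisons edgeR called 0 of the 68, with 1 to 12 at an unadjusted p under 0.05, while DESeq2 called 0 to 3 and limma-voom 0.

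Over the 12 libraries, the genes most like the mean of the members, among the 7131 genes whose log2 CPM averaged at least 1, were Loxl1, a lysyl oxidase (Pearson's r = 0.898), Cdc42ep4 (0.889) and Tent5a (0.877). For single members the 3 most alike were Pla1a, Pxdc1 and Irf2bp2 for Hspa1a (0.856 to 0.841), and Stat3, Arap1 and Sf3b3 for Hspa1b (0.903 to 0.834). They were Insyn1, Clec3b and Arf5 for Hspa8 (0.914 to 0.840), Trim47, Stat3 and Tent5a for Hsph1 (0.842 to 0.822), Cdc42ep4, Loxl1 and Pxdc1 for Dnaja1 (0.956 to 0.893), and Ccdc117, Emp3 and Nab2 for Dnajb1 (0.909 to 0.894). They were Sertad2, Hsdl1 and Kat6a for Hsp90aa1 (0.930 to 0.909), Mxi1, Aktip and Gpx1 for Hsp90ab1 (0.992 to 0.978), Klk8, Srp14 and Fbxo9 for Hspb1 (0.864 to 0.832), and Tcp1, Cdkn2d and Gstm5 for Cryab (0.925 to 0.903). These r are descriptions over libraries that share their scaling and were picked as the highest of many.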

How the data were processed

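Heart RNA was purified on RNeasy Plus columns, made into TruSeq RNA libraries and read from both ends, per the labels' protocols. Per the submitters' processing notes HISAT2 2.2.1, StringTie 2.1.3 and GRCm38.p6 were used; their roles, the counting program, the strand setting and how reads with several matches were handled are not stated there. The deposited gene matrix has raw counts, and the authors' second set of values is TPM per the file headers.

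The 10 genes were taken by symbol. Counts were filtered with filterByExpr, scaled by TMM and fitted in edgeR 4.0.16 (R 4.3.3) with 1 mean per group over all 12 libraries (6 residual degrees of freedom), and each contrast was tested 2-sided with the quasi-likelihood F-test and Benjamini-Hochberg adjustment over all 16723 genes at 0.05. The fit was checked on simulated counts for the averaged AngII against sham contrast only. These counts were drawn with the spread that the fit itself estimated, so the check does not cover the contrasts between single groups. Standard errors are the log2 fold change over the root of F. DESeq2 1.42.0 and limma 3.58.1 (voom, and limma-trend on log2(TPM + 1)) were alternatives, with other filters and scalings, a covariate, and libraries left out. Summing members with near-identical copies was chosen after seeing the data. Copies share at least 25% of the 31-base words of a member's GENCODE M21 transcripts. The members, the pathway and marker lists and the tests were chosen with earlier results of these data known. Named genes are the members, per pathway list up to 4 called genes by smallest p (the 2 smallest where none was called), and the 3 genes of highest r per member. The precision rests on 2 libraries per group.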

Additional observations from a re-analysis of the deposited data

Results flagged for a closer look

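Values were compared within each arm of 6 libraries, which mixes 3 doses, and a library was singled out where its gap to the nearest other library exceeded Dixon's 95% limit as a share of the range. Chance marks about 1 in 20 groups, and 6 values in 4 genes were marked among 20 groups. In AngII library 3 (5 mg), Hspa1a at 2.24 CPM, Hspa1b at 2.91 CPM and Hsph1 at 7.69 CPM lay above the other AngII libraries. In sham library 12 (50 mg), Hspa1b at 4.50 CPM and Hsph1 at 11.1 CPM lay above the other sham libraries. Cryab at 43.3 CPM in AngII library 1 (vehicle) lay below the other AngII libraries.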

How the results depend on the processing

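Under 12 alternatives that keep the libraries or remove 4 and 12, most fold changes kept their direction and side of the threshold (538 the same, 29 reversed, 18 newly past it, 8 no longer past it), and 104 counts of called members stayed within 1.5 times the reported count and 15 did not. The cause was not tested. In AngII against sham averaged, where 1 member passed, 3 passed by DESeq2, 2 without libraries 4 and 12, 0 on TPM and 0 with the covariate. At 50 mg, where 2 passed, 1 passed with DESeq2 size factors, 1 without mitochondrial and haemoglobin genes, 0 on TPM and 0 without libraries 4 and 12, while 3 (Hspa1b added) passed by DESeq2, without a filter and with only the groups compared, and with the covariate Hspa1b passed in place of Hspa1a. In sham 50 mg against vehicle, where 0 passed, 3 passed by DESeq2, 2 without a filter, 2 with the covariate, and 1 each with Hspa1a and Hspa1b summed, with members summed with their copies (chosen after seeing the data) and with only the groups compared. The interaction at 50 mg gave 1 without a filter, against 0. On TPM the averaged values turned positive for Cryab (0.0052), Dnaja1 (0.16), Dnajb1 (0.18), Hsp90aa1 (0.086), Hsp90ab1 (0.20), Hspa1a (0.050), Hspa1b (0.072), Hspa8 (0.51), Hspb1 (0.30) and Hsph1 (0.29). On TPM at 50 mg so did Cryab (0.18), Hsp90ab1 (0.22), Hspa8 (0.15) and Hspb1 (0.35), at 5 mg Cryab (0.035) (all 10 members were then positive, against 6), in AngII 50 mg against vehicle Dnaja1 (0.029) and Dnajb1 (0.049), and in the 5 mg interaction Hspa1a (0.23; all 10 members were then positive, against 7). Without libraries 4 and 12, the averaged values of Hspa1a (0.18), Hspa1b (0.42) and Hsph1 (0.17), the 5 mg interaction of Hspa1a (0.079), Hsp90ab1 in AngII 5 mg (-0.23) and sham 50 mg (-0.023) against vehicle, and Cryab in sham 50 mg against vehicle (0.040) reversed. With the covariate Hsp90ab1 in sham 50 mg (-0.015) and Hspa1a in AngII 50 mg (-0.061) against vehicle and Hspa1b at 5 mg in AngII against sham (-0.15) reversed, as did Hspa1a in AngII 50 mg against vehicle by limma-voom (-0.014).

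With each library left out in turn, the lone library of its group is assumed to vary like the others. Counts of called members ran from 0 to 2 (averaged), 0 to 3 (AngII against sham at 50 mg), 0 to 2 (sham 50 mg against vehicle) and 0 to 0 in the other 7 comparisons. Values that reversed in some of these fits ran as follows. In AngII against sham averaged, Hspa1a ran from -0.39 to 0.15, Hspa1b from -0.62 to 0.17, Hspa8 from -0.20 to 0.042 and Hsph1 from -0.27 to 0.048, and at 5 mg Hspa1b from -0.56 to 1.77. Against vehicle, AngII 5 mg ran from -0.23 to 0.44 for Hsp90ab1, and AngII 50 mg from -0.12 to 0.19 for Hspa1a, -0.29 to 0.13 for Dnaja1 and -0.45 to 0.36 for Dnajb1. Sham 5 mg ran from -0.67 to 0.068 for Hspa8, and sham 50 mg from -0.023 to 0.059 for Hsp90ab1 and -0.48 to 0.21 for Cryab. The 5 mg interaction of Hspa1a ran from -1.19 to 0.48. Among all genes, 906 were called in AngII against sham at 50 mg, and 50 without library 12. No paired analysis was possible because the library numbers 1 to 12 are not shared between groups. Fitting only the groups compared is the same fit for the averaged comparison, and requiring 1 CPM in 6 libraries leaves no value for Hspa1b.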
